A study of Homo sapiens with 6 samples.

Results

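The S100 genes encode a family of small calcium-binding proteins, and the levels of 10 of them were followed here in liver cancer cells with and without a hairpin against DAGLA. The 10 genes are S100A1, S100A2, S100A4, S100A6, S100A10, S100A11, S100A13, S100A14, S100A16 and S100P, found by matching Ensembl identifiers to gene symbols in the GENCODE annotation, release 29. They make up 10 of the 29908 rows of the table. S100A11 was selected on its fold change between the same 6 libraries, so its values are given as a description with no test.

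Hep3B is a long-established line of human hepatocellular carcinoma cells. Its derivative Hep3B-KD (labelled shDAGLA) carried a lentiviral short hairpin RNA directed at DAGLA. This gene encodes diacylglycerol lipase alpha, which makes the endocannabinoid 2-arachidonoylglycerol. Hep3B-Con cells (labelled shControl) carried a control lentivirus that the series describes as an empty vector, and both were infected at a multiplicity of 5 and selected with puromycin, with no further treatment. Messenger RNA of 3 Hep3B-Con and 3 Hep3B-KD samples was sequenced to ask which genes move with DAGLA, and 1 hairpin stood for the knockdown in all 3 Hep3B-KD samples, which bear replicate numbers but no record of separate transductions. The p-values below therefore measure the spread between these samples, part of which may be technical.

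Values are FPKM, the reads of a gene scaled by the length of its exons and by the total of the library. Library totals lay between 15861039 and 17572714 reads. DAGLA was at 9.42, 9.40 and 9.02 FPKM in Hep3B-Con replicates 1 to 3 and at 4.62, 4.46 and 4.78 FPKM in Hep3B-KD replicates 1 to 3. All 11 hepatocyte and hepatoma markers were expressed above the filter, with a summed level of 3186 to 3235 FPKM in Hep3B-Con and 4553 to 4576 FPKM in Hep3B-KD. That sum was mostly albumin (ALB), and the list split, with 7 markers higher and 4 lower at an adjusted p under 0.05 (FGB, KRT18, HNF4A and KRT8, by 0.33 to 0.96 on the log2 scale). Of 17 markers of leukocytes, endothelium, fibroblasts and squamous epithelium, 5 were above the filter (LUM, PDGFRB, COL1A1, LYZ and CD14), and the summed level of the list was 12.2 to 14.2 FPKM in Hep3B-Con and 10.1 to 10.6 FPKM in Hep3B-KD. The leukocyte marker PTPRC and the endothelial markers VWF and CDH5 stayed under 0.05 FPKM in every library. Other markers of the same cells were higher. The leukocyte markers LYZ and CD14 were at 2.06 to 3.99 FPKM and at 0.75 to 1.28 FPKM over the libraries. The endothelial marker PECAM1 was at 0.19 to 0.39 FPKM, with Hep3B-KD wholly above Hep3B-Con. In bulk samples fewer cells that express a gene and less of its RNA per cell cannot be told apart.

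S100 proteins are built around a pair of helix-loop-helix calcium sites called EF-hands. Most of them work as dimers inside the cell, where calcium binding opens a surface that grips a target protein, often an annexin at a membrane. Some are also released and act on receptors of other cells, among them the receptor for advanced glycation end products. In the liver several members are low in healthy hepatocytes and are known for their rise in tumours. In the genome most of the family sits in 1 cluster on the long arm of chromosome 1. S100P lies apart on chromosome 4.

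The sequences of the hairpin and of a site in S100A11 are shown first, because S100A11 was the member with the largest difference and the only member whose 3′ untranslated region holds a match to the hairpin's seed. The guide strand, which pairs with the target, was taken as the exact complement of the 19-base sequence in the study's supplement. Where cells cut the hairpin is not given in the sources used here, so the ends of the strand are assumed. The seed is bases 2 to 8 of that strand. Capitals mark the seed in the guide strand and the 7 bases that match it in the other sequences.
Guide strand of the hairpin: tTGAAGGCcttgttgtcgc
Target in DAGLA: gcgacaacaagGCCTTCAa
Site in S100A11: ccttggccctgGCCTTCAa
The S100A11 site lies at chr1:152032638-152032656 on the minus strand (GRCh38), in exon 3 of 3 of transcript S100A11-201, and its match starts at base 17 of the 156-base untranslated region. Over the 19 bases it shares 11 with the DAGLA target, a count that includes the 7 bases searched for and the A after them. The other 9 members hold no match (longest annotated 3′ untranslated region of each). Across the 11189 tested genes with an annotated 3′ untranslated region, 1628 (14.6%) hold the 7 bases and 368 (3.29%) hold them followed by A. These genes were not matched for the length of the region, which is 96 to 648 bases in the other members. The shares are therefore not an expected share for regions as short as those of the family. For the opposite strand of the hairpin the match GTTGTCG is found in 141 genes (1.26%) and in 0 members. The part of this site in the level of S100A11 was not tested.

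Upstream sequences were taken from RefSeq (GRCh38.p14) for all 10 members in 14 entries, and 4 motifs were searched in the 250 bases before each start site. S100A11 and S100A14 are printed because they were the member with the largest difference and the most abundant member. Each is cut where an annotated exon begins, and capitals mark a motif. Both stretches lie inside the span that GENCODE gives the gene, whose start there lies further upstream than the RefSeq start used here.
S100A11, chr1:152037036-152037254, minus strand: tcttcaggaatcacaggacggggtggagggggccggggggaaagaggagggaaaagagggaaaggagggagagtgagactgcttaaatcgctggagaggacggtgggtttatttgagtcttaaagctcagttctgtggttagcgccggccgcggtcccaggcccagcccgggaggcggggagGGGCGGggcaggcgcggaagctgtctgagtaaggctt
S100A14, chr1:153616356-153616575, minus strand: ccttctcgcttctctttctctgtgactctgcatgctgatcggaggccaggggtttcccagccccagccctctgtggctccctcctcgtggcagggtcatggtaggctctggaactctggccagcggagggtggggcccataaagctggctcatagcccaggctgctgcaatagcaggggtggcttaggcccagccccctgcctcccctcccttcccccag
The GC box (GGGCGG, both strands) starts 68 bases before the RefSeq start of S100A11. It is found in an entry of 5 of the 10 members. Of all 35116 RefSeq upstream sequences of that length, counted by sequence, 42.6% hold it. S100A6 holds it 3 times, 2 of them overlapping. The TATA box (TATAAA, gene strand) is found in S100P, S100A4 and S100A13, against 6.80% of all. The TEAD motif (GGAATG, both strands), bound by the DNA-binding partners of the Hippo effector YAP, is found in S100A16 alone among the members, against 11.9% of all. The AP-1 motif (TGANTCA, both strands) is found in S100A2 alone, against 6.57%. S100A14 holds none of the 4 motifs in its 250 bases. These are matches of letters in a window. For each motif a member was counted when any of its entries held it, whereas the percentages count upstream sequences. The 10 members have 14 entries, so the counts and the percentages differ in unit. Whether any motif is more or less frequent in the family was not tested.

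In Hep3B-Con the family fell into 3 tiers of abundance. S100A14 and S100A16 stood highest, S100A11, S100A6, S100A10 and S100P followed, and S100A13, S100A4, S100A2 and S100A1 were each under 1 FPKM. From S100A14 down to S100P, no member's range of 3 libraries overlapped the next, whereas the ranges of the last 4 overlapped one another in turn. The plot of member levels by library shows the tiers.

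**Figure D1:**
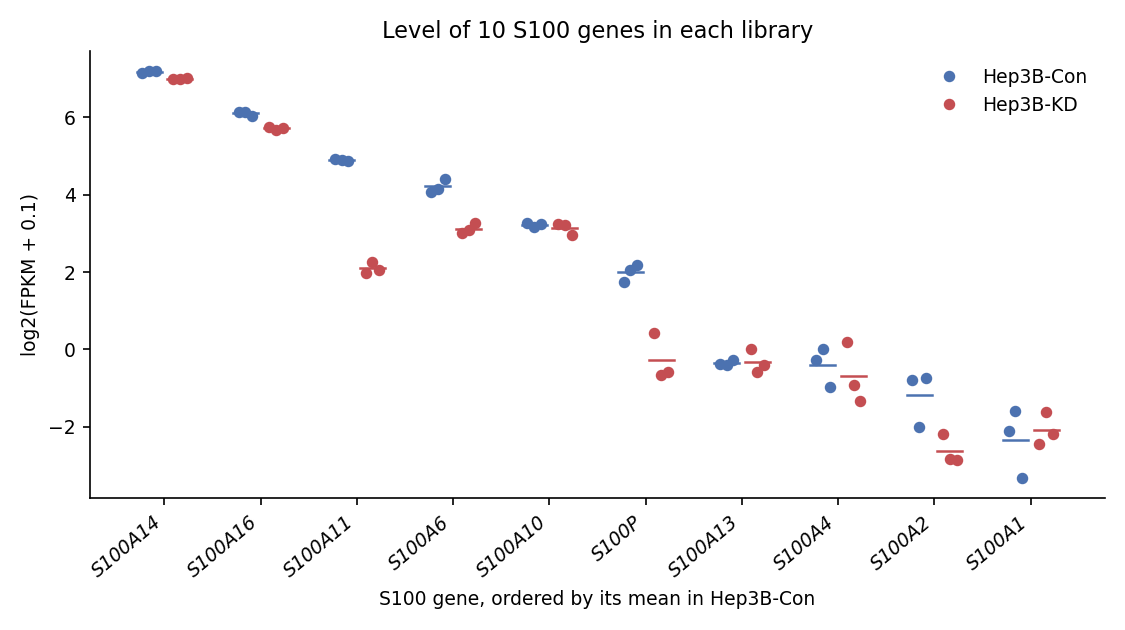
Level of each S100 gene in each library as log2(FPKM + 0.1), with Hep3B-Con in blue and Hep3B-KD in red. Points are single libraries and short lines are the mean of 3. The Hep3B-KD points of S100A11, S100P, S100A6, S100A16, S100A14 and S100A2 all lie below the Hep3B-Con points of the same gene. Of all genes tested 26.3% lay so, and 66.9% were apart in either direction. S100A11 was chosen for its fall, and S100A2 was below the filter, with 3, 1 and 1 reads in Hep3B-KD.

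In Hep3B-KD the order of the middle tier changed. S100A11 moved below S100A10 and S100A6, whose ranges overlapped each other at 7.62 to 9.40 FPKM and 7.92 to 9.56 FPKM. S100P dropped to the level of the lowest members, and its range overlapped that of S100A13. S100A14 and S100A16 kept the first and second places in all 6 libraries. Among the 14221 genes tested, S100A14 ranked between 188 and 204 in Hep3B-Con and between 191 and 198 in Hep3B-KD.

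The groups were compared with limma on log2(FPKM + 0.1), and p-values were adjusted by the Benjamini-Hochberg method over all 14221 genes whose mean reached 0.5 FPKM. Log2 fold changes are given as Hep3B-KD minus Hep3B-Con of these log values, and for low genes they are smaller than the true change. Of the 10 members 8 were above the filter. S100A11 is left out of the counts that follow, since it was chosen on this contrast. Of the other 7 tested members 4 were lower in Hep3B-KD at an adjusted p under 0.05 (S100P, S100A6, S100A16 and S100A14). Of all genes tested 23.8% were lower at that threshold and 36.1% were higher, and 0 members were higher. With a fold change of at least 2 as well, 2 members were lower (S100P and S100A6), against 2.94% of all genes lower, 5.89% higher and 8.83% in either direction. The 4 lower members had Hep3B-KD values wholly below their Hep3B-Con values, which 26.3% of all genes also had, while 40.7% had them wholly above and 66.9% were apart in either direction. The median log2 fold change of the 7 members was -0.27, and that of all genes tested was 0.11. The members' median is the value of S100A4, a gene of few reads. Leaving out 1 library at a time moved it between -0.41 and -0.17. Centring each library on its median log ratio brings the median of all genes to 0.0059 and the share of genes lower to 30.3%, or to 3.77% with the fold change of at least 2. Quantile normalization brings these shares to 27.4% and 4.13%. With that centring 4 of the 7 members were lower at an adjusted p under 0.05, and with quantile normalization 3 were, without S100A14.

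S100A11 (ENSG00000163191) encodes a dimeric partner of annexin A1 that takes part in membrane repair and in the growth control of epithelial cells. Its gene lies at chr1:152032506-152047907 on the minus strand. It stood at 30.3, 29.5 and 29.3 FPKM in Hep3B-Con and at 3.80, 4.67 and 4.08 FPKM in Hep3B-KD. Every Hep3B-KD library was far below every Hep3B-Con library, and the libraries of each group lay close together. Reads numbered 332 to 362 per library in Hep3B-Con and 41 to 51 in Hep3B-KD. The mean went from 29.7 ± 0.509 FPKM (SD, n = 3) to 4.18 ± 0.444 FPKM (SD, n = 3), so that 14.1% was left, and the log2 fold change was -2.80 (standard error 0.0729). Of the 14221 genes tested, 14 had a lower log2 fold change. By its mean FPKM S100A11 stood at percentile 89.2 of the genes tested in Hep3B-Con and at percentile 45.2 in Hep3B-KD. Its processed pseudogenes S100A11P1 and S100A11P2 are not among the rows used here, so reads from these near copies could not be set apart.

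S100P (ENSG00000163993) encodes a mainly secreted or cytoplasmic member, first found in placenta, that binds ezrin and the receptor for advanced glycation end products. Its gene lies at chr4:6693069-6697170 on the plus strand, on a different chromosome from the cluster. It was at 3.25, 4.05 and 4.46 FPKM in Hep3B-Con and at 1.23, 0.54 and 0.56 FPKM in Hep3B-KD. The groups did not overlap, and Hep3B-KD replicate 1 stood above the other two. Behind these values were 73 to 95 reads per library in Hep3B-Con and 11 to 25 in Hep3B-KD. S100P fell by 2.27 on the log2 scale (standard error 0.299, adjusted p = 0.000644, limma). Over the 3 libraries of each group the share of reads was 5.05 times higher in Hep3B-Con (exact 95% counting interval 3.70 to 7.03). With a pseudocount of 1 the log2 fold change was -1.48, and among all genes 53 had a lower one than the value reported.

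S100A6 (ENSG00000197956), also called calcyclin, encodes a member that binds CACYBP and annexins and marks proliferating and fibroblast-like cells. Its gene lies at chr1:153534599-153536244 on the minus strand. It was at 16.8, 17.7 and 21.2 FPKM in Hep3B-Con and at 7.92, 8.46 and 9.56 FPKM in Hep3B-KD. The highest Hep3B-KD library was well below the lowest Hep3B-Con library. The mean went from 18.6 ± 2.35 FPKM (SD, n = 3) to 8.65 ± 0.834 FPKM (SD, n = 3), which left 46.6%. S100A6 fell by 1.09 on the log2 scale (standard error 0.104, 95% interval -1.34 to -0.84, adjusted p = 0.000138, limma). Of all genes tested 437 had a lower log2 fold change.

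S100A16 (ENSG00000188643) and S100A14 (ENSG00000189334) lie side by side at chr1:153606886-153613145 and chr1:153614255-153616986, both on the minus strand, and encode close relatives with a weak calcium site that are abundant in epithelial tumours. S100A16 was at 69.8, 70.3 and 65.8 FPKM in Hep3B-Con and at 53.9, 50.8 and 53.3 FPKM in Hep3B-KD. S100A14 was at 141.5, 146.1 and 146.7 FPKM in Hep3B-Con and at 127.4, 127.7 and 128.7 FPKM in Hep3B-KD. For both genes the groups were apart, by a wider margin in S100A16. S100A16 fell by 0.38 on the log2 scale (standard error 0.0351, adjusted p = 0.000115, limma), which left 76.7%. S100A14 fell by 0.18 (standard error 0.0189, adjusted p = 0.000230, limma), which left 88.4%. With quantile normalization the S100A14 difference was -0.0043 (adjusted p = 0.898, limma) and its call was lost. Without adjustment for all genes, an exact permutation test of 1 gene over 3 libraries against 3 cannot go below p = 0.1, which is what S100A14, S100A16, S100A6 and S100P each gave (two-sided).

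S100A10 (ENSG00000197747), the calcium-insensitive partner of annexin A2 in a complex at the cell membrane, is the next S100 gene to S100A11 on the chromosome, at chr1:151982915-151994390. It was at 9.52, 8.84 and 9.34 FPKM in Hep3B-Con and at 9.40, 9.16 and 7.62 FPKM in Hep3B-KD. The groups overlapped, and Hep3B-KD replicate 3 was the lowest of the 6. The log2 fold change was -0.09 (95% interval -0.29 to 0.11, adjusted p = 0.410, limma), and 0.0078 without Hep3B-KD replicate 3. The interval allows a loss of up to 0.29 on the log2 scale and leaves out one of the size seen in S100A6.

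S100A13 (ENSG00000189171), which helps to export fibroblast growth factor 1, was at 0.67, 0.65 and 0.73 FPKM in Hep3B-Con and at 0.91, 0.56 and 0.65 FPKM in Hep3B-KD. The groups overlapped, with the highest and the lowest of the 6 values both in Hep3B-KD. The fitted log2 fold change was 0.02 (95% interval -0.50 to 0.55, adjusted p = 0.932, limma), and the sign turned with centring on the median log ratio (-0.08) and with quantile normalization (-0.29). S100A4 (ENSG00000196154), a binder of non-muscle myosin known from motile and metastatic cells, was at 0.72, 0.90 and 0.41 FPKM in Hep3B-Con and at 1.05, 0.43 and 0.29 FPKM in Hep3B-KD. Its groups overlapped too, with 5 to 17 reads per library. The log2 fold change was -0.27 (95% interval -1.39 to 0.84, adjusted p = 0.640, limma), and it was 0.05 without Hep3B-KD replicate 3. At this depth a change of the size of that of S100A6 was not detectable in S100A4. The S100A13 gene overlaps S100A1 on the opposite strand, and S100A4 overlaps S100A3 on the same strand. In GENCODE S100A11 overlaps AL450992.1 and S100A6 overlaps BX470102.1, both on the opposite strand. S100A13 also overlaps AL162258.1 on the same strand, and S100A1 overlaps AL162258.1 and AL162258.2 on the opposite strand. Strand-aware counting is not stated, so reads of these pairs cannot be told apart where they overlap.

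S100A2 (ENSG00000196754) and S100A1 (ENSG00000160678) were below the filter. S100A2, a nuclear member of squamous epithelium, was at 0.47, 0.15 and 0.50 FPKM in Hep3B-Con and at 0.12, 0.04 and 0.04 FPKM in Hep3B-KD. All Hep3B-KD values were below all Hep3B-Con values, on 30 reads in total against 5. Its share of reads was 5.64 times higher in Hep3B-Con, with an exact 95% counting interval of 2.17 to 18.6, and with no filter the adjusted p was 0.0594 (limma). S100A1, best known from heart muscle, had 19 reads over the Hep3B-Con libraries against 21 over those of Hep3B-KD, and the ratio of Hep3B-Con to Hep3B-KD was 0.851 (exact 95% counting interval 0.433 to 1.66). Reads without molecular identifiers are not independent molecules, so these intervals cover counting error only.

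**Figure D2:**
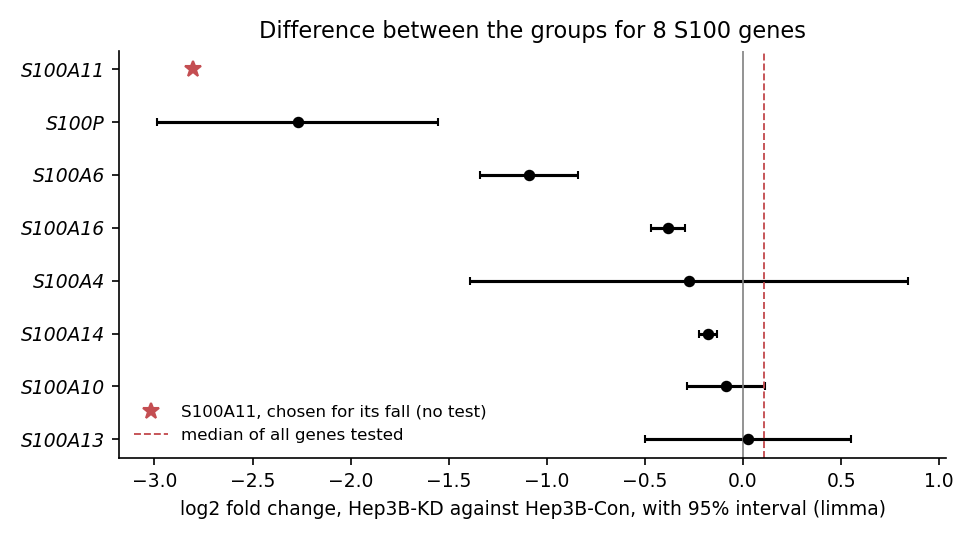
The log2 fold change of the 8 S100 genes above the filter, Hep3B-KD against Hep3B-Con, with limma's 95% interval for the 7 that were tested, a star without an interval for S100A11, which was chosen for its fall, and a dashed line at the median of all genes tested (0.11). The intervals of S100P, S100A6, S100A16 and S100A14 lie below 0, where S100A14 moves to -0.0043 with quantile normalization. The intervals of S100A4, S100A10 and S100A13 cross 0.

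Summed over the 10 members, the family stood at 276.7 ± 3.08 FPKM (SD, n = 3) in Hep3B-Con against 204.4 ± 1.67 FPKM (SD, n = 3) in Hep3B-KD, a sum that includes the gene chosen for its fall. S100A11 made up 10.7% ± 0.304 (SD, n = 3) of it in Hep3B-Con but 2.05% ± 0.234 (SD, n = 3) in Hep3B-KD. The share of S100A14 was 52.3% ± 0.451 (SD, n = 3) in Hep3B-Con against 62.6% ± 0.607 (SD, n = 3) in Hep3B-KD, although its own level was lower there. S100A16 held about the same share, 24.8% ± 1.03 (SD, n = 3) against 25.7% ± 0.600 (SD, n = 3). For each transcript of S100A10 there were 3.22 ± 0.106 (SD, n = 3) of S100A11 in Hep3B-Con but 0.483 ± 0.0693 (SD, n = 3) in Hep3B-KD, as ratios of FPKM.

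**Figure D3:**
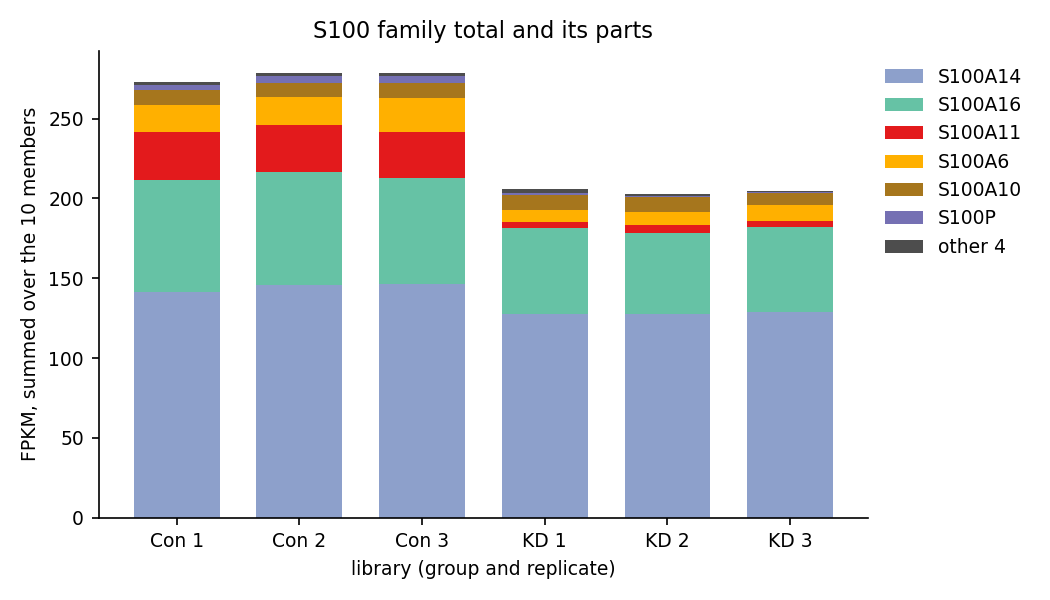
FPKM of the 10 S100 genes stacked in each library, with the 4 lowest genes together as 1 dark band. The stacks reach 273.2 to 278.6 FPKM in the Hep3B-Con libraries and 202.6 to 205.8 FPKM in the Hep3B-KD libraries, and the red band of S100A11 is the one that thins most.

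The chromosome 1 members span chr1:151982915-153632039. S100A10 and S100A11 sit at one end of that stretch, 38.1 kb apart, and the other members at the far end. Neighbour genes were taken as the 76 protein-coding genes other than S100 genes that lie within the stretch or 500 kb on either side. Of these 47 had no row in the table, 9 were below the filter and 20 were tested, of which 11 passed an adjusted p under 0.05, 6 higher and 5 lower in Hep3B-KD, or 6 and 8 with centring on the median log ratio. Of all genes 59.9% passed. A fold change of at least 2 was found in 0 of the neighbours. The largest falls were those of TUFT1 (-0.52), THEM4 (-0.32) and DENND4B (-0.27), and the largest rises those of SLC27A3 (0.59), SNX27 (0.53) and INTS3 (0.51), all as log2 fold changes that passed limma's test, with the call of SLC27A3 lost under quantile normalization (0.37, adjusted p = 0.0668). The median over the 20 was -0.0023. TCHHL1, the tested gene nearest to S100A11 on its other side and named after its value was seen, differed by 0.27 on the log2 scale (adjusted p = 0.145, limma).

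**Figure D4:**
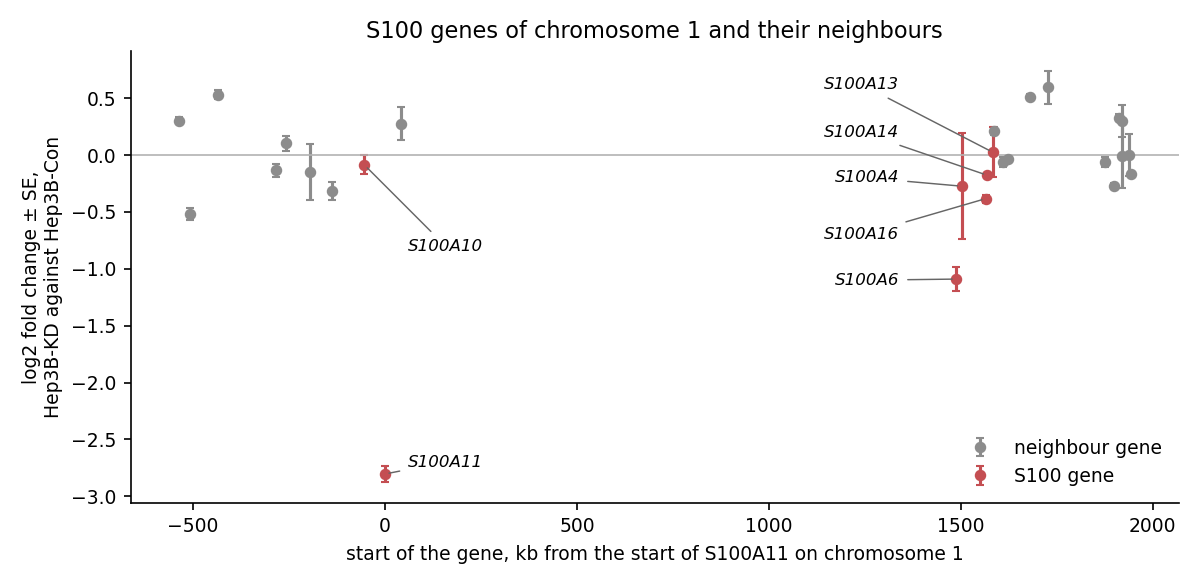
The log2 fold change with its standard error for S100 genes (red) and tested neighbour genes (grey), against the distance of the gene's GENCODE start from that of S100A11 in kb. S100A11 at -2.80 and S100A6 at -1.09 lie below every grey point, and the grey points run from -0.52 to 0.59.

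Among the genes whose profile over the 6 libraries was nearest to that of S100A11 (Euclidean distance between log2(FPKM + 0.1) values centred on their mean) were SMOX at 0.167, CER1 at 0.298, POLE4 at 0.316 and ANGPTL8 at 0.341. With 6 libraries in 2 groups this likeness rests mostly on the size of the difference between the groups. SMOX, the spermine oxidase, went from 38.0 ± 1.56 FPKM (SD, n = 3) to 5.28 ± 0.263 FPKM (SD, n = 3). The match to the hairpin's seed was found 2 times in the 3′ untranslated region of SMOX (340 bases) and 3 times in that of POLE4 (706 bases). It was not found in those of CER1 and ANGPTL8. Of all tested genes with such a region 14.6% hold it, without matching for length. Of the matches in SMOX and POLE4, 1 in SMOX is followed by A, as the site in S100A11 is. The part of these matches in the levels was not tested. SMOX, CER1, POLE4 and ANGPTL8 were picked for their low values in the same contrast, so their own differences are no test.

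Of the 11 other S100 genes looked for, 7 had no row in the table used here (S100A7, S100A7A, S100A7L2, S100A8, S100A12, S100B and S100Z) and 4 were below the filter (S100A3, S100A5, S100A9 and S100G), so 0 were tested. S100A3 had 3, 2 and 1 reads in Hep3B-Con and 0 in each Hep3B-KD library, which is at the floor of 3 reads and gives no fold. The calgranulin S100A9, an abundant protein of neutrophils and monocytes, was at 0 FPKM in 5 of the 6 libraries.

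The binding partners of S100 proteins moved in both directions. Of 26 genes on that list 24 had a row and 19 were tested, and 10 passed an adjusted p under 0.05, 6 higher and 4 lower, against 59.9% of all genes. With centring on the median log ratio 5 partners were higher and 9 lower, and with quantile normalization 7 were higher and 3 lower. The median log2 fold change was 0.04. Annexin A2, the partner of S100A10, was at 66.1, 68.1 and 67.2 FPKM in Hep3B-Con and at 26.7, 27.0 and 26.7 FPKM in Hep3B-KD, with no overlap. ANXA2 fell by 1.32 on the log2 scale (standard error 0.0208, adjusted p = 1.25e-07, limma), so that its ratio to S100A10 went from 7.28 ± 0.388 (SD, n = 3) to 3.10 ± 0.352 (SD, n = 3). ANXA2P2, a near copy without introns, was also lower (log2 fold change -1.24, adjusted p = 1.95e-05, limma), and how reads were shared between the copies is not stated. The 3′ untranslated region of ANXA2 holds no match to the hairpin's seed. Annexin A1, the partner of S100A11, was below the filter at 0.52, 0.33 and 0.26 FPKM in Hep3B-Con and 0.08, 0.05 and 0.05 FPKM in Hep3B-KD. Its share of reads was 5.91 times higher in Hep3B-Con (exact 95% counting interval 3.34 to 11.3, on 88 reads against 14).

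Lower too were nucleolin (NCL, -0.28), to which S100A11 binds on its way into the nucleus, the calcium pump gene ATP2A2 (-0.28), a target of S100A1, and the co-chaperone gene STIP1 (-0.21), whose call was lost with quantile normalization (-0.02, adjusted p = 0.441, limma). Among the higher partners, HLTF, a DNA translocase, went from 4.25 ± 0.232 FPKM (SD, n = 3) to 9.83 ± 0.328 FPKM (SD, n = 3), a rise of 1.19 on the log2 scale (adjusted p = 5.49e-06, limma). AHNAK, the giant scaffold bound by the S100A10 and annexin A2 complex, rose by 0.58, from 11.1 ± 0.317 FPKM (SD, n = 3) to 16.7 ± 0.582 FPKM (SD, n = 3). S100PBP, named for its binding to S100P, rose by 0.44 (adjusted p = 0.000521, limma). Its Hep3B-KD values lay wholly above its Hep3B-Con values, as did those of 40.7% of all genes. Those of S100P lay wholly below, as did those of 26.3% of all genes. The S100A4 targets PPFIBP1 and MYH9, of liprin beta and the myosin heavy chain, rose by 0.37 and 0.24. The ezrin gene EZR, whose protein is activated by S100P, was higher by 0.09 as deposited and at -0.02 with centring on the median log ratio, where its call was lost.

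CACYBP, the calcyclin-binding protein gene, was at 48.4 ± 0.532 FPKM (SD, n = 3) and 49.7 ± 0.444 FPKM (SD, n = 3), a log2 fold change of 0.04 (adjusted p = 0.116, limma) that centring on the median log ratio turned to -0.06 (adjusted p = 0.0292, limma) and quantile normalization brought to 0.16 (adjusted p = 0.000762, limma). MDM2, which several S100 proteins bind, differed by 0.08 on the log2 scale (adjusted p = 0.357, limma), and by -0.06 with quantile normalization. Further tested partners (ANXA6, ANXA11, DLC1, IQGAP1, PPP5C and SUGT1) had log2 fold changes between -0.08 and 0.23 that did not pass the test. ANXA11, DLC1, PPP5C and IQGAP1 passed as lower with centring on the median log ratio, at -0.18, -0.16, -0.14 and -0.16. With limma's voom on recovered reads ANXA11 passed as lower (-0.08, adjusted p = 0.0452) and SUGT1 as higher (0.25, adjusted p = 0.0159). SUGT1 also passed as higher with eBayes without the trend (0.23, adjusted p = 0.0334, limma).

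All 3 receptors that were tested were higher in Hep3B-KD, against 36.1% of all genes. AGER, the receptor for advanced glycation end products, was at 1.73, 1.66 and 1.79 FPKM in Hep3B-Con and at 3.13, 3.27 and 2.50 FPKM in Hep3B-KD, with no overlap. It rose by 0.74 on the log2 scale (standard error 0.112, adjusted p = 0.00131, limma). Basigin (BSG), a receptor of S100A9, rose by 0.43, from 165.2 ± 2.33 FPKM (SD, n = 3) to 222.6 ± 1.18 FPKM (SD, n = 3). Neuroplastin (NPTN), a relative of basigin that binds S100A8, rose by 0.19 (adjusted p = 0.00228, limma), and with centring on the median log ratio its difference was 0.08 and its call was lost (adjusted p = 0.0580, limma). CD36 was below the filter, and TLR4 had no row in the table used here.

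Calcium-binding genes with EF-hands outside the S100 family moved both ways as well. Of 28 such genes 24 were tested and 20 passed an adjusted p under 0.05, 9 higher and 11 lower, against 59.9% of all genes. Their median log2 fold change was -0.02. That of the 7 S100 members tested other than S100A11 was -0.27, which is the value of S100A4, a gene of few reads. EFHD1, a mitochondrial calcium sensor, fell by 1.48 (from 1.30 to 0.412 FPKM), a value that rests on low levels in Hep3B-KD, under the filter itself, and came to -0.70 with a pseudocount of 1. The calpain subunit gene CAPN2 fell by 0.86 and the neuronal calcium sensor gene NCS1 fell by 0.84. GCA, the grancalcin gene, rose by 0.81, the nucleobindin gene NUCB2 rose by 0.73, and CALM3, 1 of the 3 genes that encode calmodulin, rose by 0.53, from 66.5 ± 2.21 FPKM (SD, n = 3) to 96.2 ± 1.33 FPKM (SD, n = 3).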

How the data were processed

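RNA sequencing of 3 Hep3B-Con and 3 Hep3B-KD samples was used, with groups and replicate numbers taken from the sample titles. The authors deposited FPKM values for 29908 Ensembl genes in 1 table, with 0 further columns of values. Library preparation used a TruSeq kit, per the study's methods. The submitters' processing notes name Bowtie2 2.0.6, TopHat2 2.0.12 and the GRCh37 build. The counter, the annotation and the strand setting are not given in the sources used here. With exon lengths from GENCODE release 29 (GRCh38), 100% of the FPKM values above 0 gave whole reads (within 0.01), so reads per gene and library totals were recovered from the deposited FPKM values. Coordinates are those of GENCODE release 29 and are the position of the gene, not of the authors' alignments.

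The log2(FPKM + 0.1) of 14221 genes, those whose mean reached 0.5 FPKM, was analysed, with all rows of a repeated symbol kept. Groups were compared with limma 3.58.1 in R 4.3.3 (lmFit, eBayes with a trend), two-sided, with Benjamini-Hochberg adjustment over all genes. On simulated reads with a dispersion of 0.01 for this comparison, it recovered 82.5% of genes changed 2-fold and 94.8% of genes changed 4-fold (97 of each among 14232), with 12 false calls. With a dispersion of 0.1 it recovered 3.13% and 76.0% (96 of each among 14165), with 7 false calls. Both dispersions were set and not estimated from the 6 libraries. The simulation changed 200 genes, whereas 59.9% of genes passed in the data, so these rates need not hold for this comparison. Tables were handled in Python 3.11.15. The 10 members and all lists were chosen with earlier results of these data known. Named were the members, the genes of the partner, receptor and other S100 lists, the 3 largest passing rises and falls of the neighbour and EF-hand lists, DAGLA, and the 5 nearest profiles to S100A11, except that 1 of these and 1 partner are not reported here. The floor was 3 reads per library. The alternatives were pseudocounts of 1 and 0.01, no filter or a mean of at least 1 FPKM, 3 other scalings, eBayes without the trend, limma's voom on recovered reads, the replicate number as a block, and each library left out. The hairpin's target sequence came from the study's supplement, and its seed was searched in the longest 3′ untranslated region of at least 50 bases of each tested gene. Protein sequences were not used here.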

Additional observations from a re-analysis of the deposited data

How the results depend on the processing

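Leaving aside S100A11, which has no test, the calls of S100P, S100A6, S100A16 and S100A14 held under every alternative run except quantile normalization, which left 3 of the 4 because S100A14 came to -0.0043 (adjusted p = 0.898, limma). A pseudocount of 1 brought S100A11 to -2.57 and the genes with a fold change of at least 2 from 1256 to 503, the pseudocount itself shrinking low genes. Without a filter 1 other S100 gene passed (S100A3, at the floor). The sign of S100A13 turned with centring on the median log ratio (-0.0790) and quantile normalization (-0.29). With centring, ANXA6 came to -0.0750, CACYBP to -0.0629, MDM2 to -0.0195 and EZR to -0.0162, and with quantile normalization ANXA6 came to -0.29, SUGT1 to -0.0262 and MDM2 to -0.0606. Leaving out 1 library at a time kept S100P, S100A6, S100A16 and S100A14 called. Log2 fold changes then ranged from -2.88 to -2.74 for S100A11, -0.15 to 0.16 for S100A13, -0.14 to 0.0078 for S100A10, -0.72 to 0.0525 for S100A4 and -0.0255 to 0.11 for ANXA6. The causes of these turns were not tested.

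The split of all genes by direction moved with scaling. At a fold change of at least 2 it was 838 higher and 418 lower as deposited, 622 and 536 with centring, and 477 and 587 with quantile normalization, and at any fold change 5133 and 3388, 4064 and 4308, and 4270 and 3902. Replicate numbers are shared between the groups, but same-numbered libraries did not deviate together (r = -0.01, -0.07 and -0.0011 over 14221 genes). With the replicate number as a block S100P, S100A6, S100A16 and S100A14 passed, and no member's call changed. In that fit 1247 genes passed with a fold change of at least 2. Depth limits S100A1, S100A2, S100A4 and S100A13, each at 32 reads or fewer per library.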
